A study of Mus musculus with 8 samples.

Results

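The 6 genes described here mark fields of the hippocampus: *Prox1* and *Dsp* the dentate gyrus, *Wfs1*, *Fibcd1* and *Spink8* field CA1, and *Zbtb20* the hippocampus across its fields. They were chosen by gene name, with earlier results of these data known, and are 6 of the 24015 rows of the count table. The RNA came from 8 mice at postnatal day 7 (P7) on a C57BL/6N background, each sequenced as its own library: 2 WT males with intact *Scn1a*, 4 1b+/- animals (2 males and 2 females) with 1 deleted copy of the non-coding 1b interval of *Scn1a*, and 2 1b-/- females with both copies deleted. All deletion carriers descend from 1 Cas9-made deletion line bred to C57BL/6N. The labels call the tissue hippocampus while the methods of the study call the P7 tissue forebrain, so the 6 genes bear on which region was sampled. With WT all male and 1b-/- all female, sex and genotype cannot be told apart between these groups.

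The hippocampus is built from the granule cells of the dentate gyrus and the pyramidal cells of the CA fields, and each of these neuron types keeps its identity through its own transcription factors and surface and secreted proteins. *Prox1*, a homeobox transcription factor, specifies granule cells. *Zbtb20*, a zinc finger repressor, is needed for CA1 identity, and none of the 6 genes is exclusive to the hippocampus: *Prox1* is also made by thalamic neurons and by interneurons from the caudal ganglionic eminence, *Zbtb20* by astrocytes and progenitors, *Wfs1* by neurons of the striatum, amygdala and superficial cortex, and *Dsp* by every epithelium that has desmosomes. Field genes are also acquired over development, and their level in dissected P7 hippocampus was not measured in these libraries.

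Depth ran from 2947770 counts in 1b+/- replicate 4 to 20878772 in 1b+/- replicate 3. Levels are in CPM, reads of a gene scaled to library size. A count of 0 allows a level of up to 0.145 CPM at the largest depth and of up to 1.001 CPM at the smallest, taking 3 counts as the limit and counting error alone. *Scn1a* followed the labels, with a mean of 42.8 CPM in WT, 22.5 in 1b+/- and 2.59 in 1b-/-, and the sex labels matched the sex-linked transcripts in 8 of 8 libraries. A pair of libraries stood apart in genes of other tissue. WT replicate 1 held 226 CPM summed over 15 keratin and other epithelial genes, against 87.1 in WT replicate 2 and 16.4 to 49.9 in the 6 mutant libraries. The male 1b+/- replicate 1 held 60.3 CPM summed over 14 midbrain and hindbrain genes, where the other 7 libraries had 1.001 to 16.8, and the most meningeal RNA (2089 CPM over 10 genes, where WT replicate 1 had the least with 598). Where a result on the field genes rests on either library, the value without it is given beside it if that fit was run. In bulk tissue, fewer cells of a type and less RNA per cell cannot be told apart.

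All 6 genes lay below the median of tested genes on a scale that allows comparison between genes. Divided by exon length, as CPM per kilobase of annotated exon (RPKM), the mean over 8 libraries was 4.76 for *Prox1*, 2.39 for *Zbtb20*, 2.203 for *Wfs1*, 1.36 for *Dsp*, 0.755 for *Fibcd1* and 0.193 for *Spink8*. The median over all tested genes with a length was 5.35 RPKM, and 0 of the 6 genes reached it. *Prox1*, the most abundant, exceeded 47.4% of these genes, *Zbtb20* 33.5%, *Wfs1* 31.8%, *Dsp* 24.1%, *Fibcd1* 17.5% and *Spink8* 4.55%. In CPM, without division by length, *Zbtb20* exceeded 78.4% of tested genes. The order held in most libraries but not between every pair of neighbours: *Prox1* was above *Zbtb20* in 7 of 8 libraries, *Zbtb20* above *Wfs1* in 4 of 8, *Wfs1* above *Dsp* in 7, *Dsp* above *Fibcd1* in 6 and *Fibcd1* above *Spink8* in 7. *Zbtb20* and *Wfs1* thus could not be ranked per length. *Zbtb20* had by far the longest exon sequence (30730 bases against 794 for *Spink8*), which is why it led in CPM (73.4 against 19.7 for *Prox1*) and not in RPKM.

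Another 27 hippocampal genes spanned a wider range of levels, from under 1 RPKM to well above the field genes. Of 10 other dentate genes, 5 had a mean under 1 RPKM, and the median was 1.24. *Neurod1*, a transcription factor of many immature neurons, reached 69.3 RPKM, followed by the semaphorin *Sema5a* (8.001) and the calcium-binding protein *Calb1* (7.36), none of them exclusive to granule cells. The lowest 3 of the 10 were *C1ql2*, *Tdo2* and *Lct*, transcripts used to outline mature granule cells, at 0.573, 0.162 and 0.116 RPKM. They were named after their values were seen and do not stand for the dentate genes as a set. *Dock10* and *Pdia5*, of the same list, were at 2.68 and 1.54 RPKM. The 13 other CA field genes had a median of 2.53 RPKM, led by *Pou3f1* (11.98), *Pvrl3* (7.90) and *Coch* (3.71), with 3 of 13 under 1. The 4 genes of the hippocampal primordium and its fields, called primordium genes below, were higher, with a median of 9.60 RPKM. Some of them are shared with the neocortex and its progenitors. *Lhx2* was at 35.02, *Emx2* at 15.6 and *Nr3c2* at 3.60 RPKM. Over the 33 hippocampal genes together, 10 lay under 1 RPKM and 7, none of them among the 6 field genes, above the median of tested genes.

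Genes of other forebrain regions, and of interneurons and astrocytes, were also abundant in the same libraries. Their list medians lay above those of the dentate and CA field genes and below that of the 4 primordium genes. Interneurons and astrocytes are cell types and not regions, so their lists do not bear on which region was sampled. Neocortical layer genes had a median of 8.23 RPKM, with *Rprm* at 51.3 and *Tle4* at 36.9. Striatal projection neuron genes had a median of 9.04 RPKM, and 0 of 12 lay under 1, with the enkephalin precursor *Penk* at 16.5. Thalamic genes had a median of 4.92 (the glutamate transporter *Slc17a6* 26.2, *Calb2* 20.4), interneuron genes of the caudal ganglionic eminence 3.79 (*Cnr1* 78.0, *Cck* 14.6) and astrocyte genes 8.89 (*Gja1* 89.1, *Slc1a3* 45.7). Genes of the midbrain, hindbrain and cerebellum gave the low end, with a median of 0.175 RPKM and 14 of 14 under 1, the highest being *Gata3* at 0.882 and *En2* at 0.526. *Spink8*, at 0.193 RPKM, was thus at the level of genes from regions outside the forebrain, and *Fibcd1*, at 0.755, was above 13 of the 14. Without 1b+/- replicate 1, *Fibcd1* was at 0.659 RPKM and above 14 of 14 (*Gata3* then at 0.407), while *Spink8*, at 0.173, was above 10. The label of hippocampus was not singled out by the field genes, since striatal and neocortical genes were plentiful in all 8 libraries (striatal sum 310 to 535 CPM, neocortical sum 516 to 609). Marker genes differ in strength, so these levels are not shares of tissue.

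**Figure D1:**
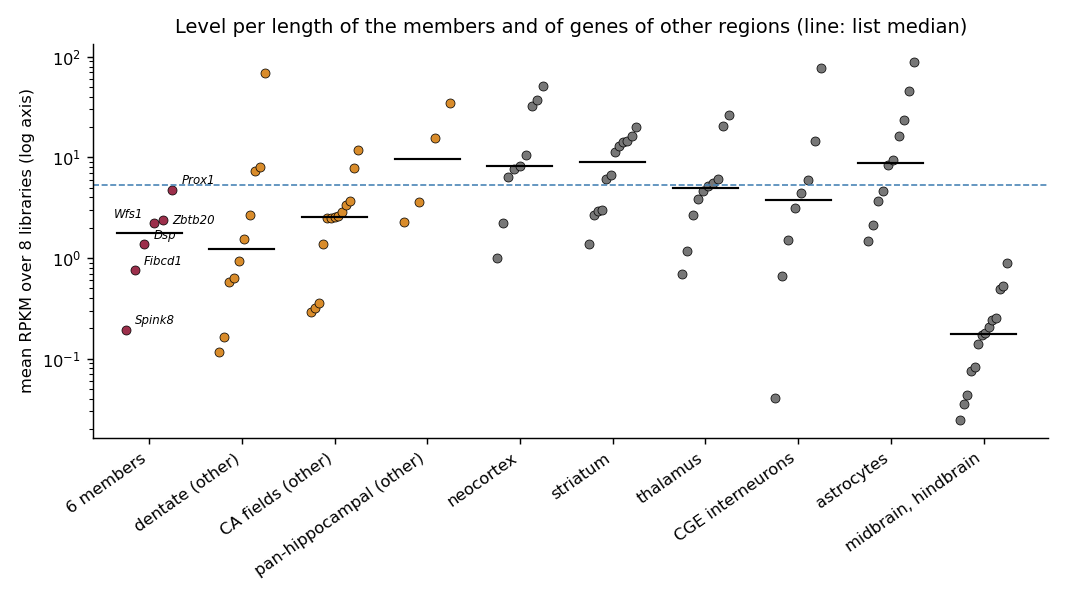
Mean RPKM over 8 libraries (log axis) of each gene, 1 point per gene, for the 6 field genes (dark red, named), 27 other hippocampal genes (orange) and genes of other regions and cell types (grey). Black bars are list medians and the dashed line is the median of all tested genes with a length (5.35 RPKM). All 6 named genes lie below the dashed line, and *Spink8* lies among the midbrain and hindbrain genes.

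*Prox1* lies on chromosome 1 (mm9 chr1:191945660-191994559, minus strand). WT replicate 1 had 30.6 CPM and WT replicate 2 had 17 (371 and 111 counts), beside 14.6, 11.6, 20.1 and 11.7 CPM in 1b+/- replicates 1 to 4 (221, 115, 415 and 35 counts), and 21.2 and 30.8 CPM in 1b-/- (173 and 123 counts). WT replicate 1 and 1b-/- replicate 2 were high and nearly equal. Both 1b-/- libraries lay above all 4 1b+/- libraries, and these genotypes did not overlap in 7.4% of all tested genes. The means were 23.8 ± 9.65 CPM in WT (SD, n = 2), 14.5 ± 3.99 in 1b+/- (SD, n = 4) and 26.0 ± 6.81 in 1b-/- (SD, n = 2), so the order of genotypes did not follow the number of deleted alleles. On the log2 scale 1b+/- differed from WT by -0.70 (95% interval -1.32 to -0.08) and 1b-/- from 1b+/- by 0.79 (0.16 to 1.42), with unadjusted p of 0.0294 and 0.0181 in edgeR's quasi-likelihood test. Neither passed the threshold after Benjamini-Hochberg adjustment over all genes (adjusted p at least 0.9999 in both). The former rested on WT replicate 1: it was -0.20 without that library and -1.05 without WT replicate 2. The latter kept its sign in 18 of 18 alternatives, which share libraries, from 0.51 to 1.05. 1b+/- held both sexes and 1b-/- females only. In females alone the latter was 0.62, and with sex as a covariate 0.63. In either fit 0 of 5 tested field genes had an unadjusted p under 0.05 between these genotypes (edgeR).

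Thalamic RNA varied between the same libraries. The sum of 10 thalamic genes was 475 and 248 CPM in WT, 457, 319, 294 and 256 in 1b+/- and 273 and 362 in 1b-/-. *Tcf7l2*, the transcription factor that defines most thalamic nuclei and was chosen here after its values were seen, ranged from 8.68 CPM in 1b+/- replicate 4 to 118 in WT replicate 1. The next highest was 66.3 CPM in 1b-/- replicate 2, so *Tcf7l2* was highest in the 2 libraries with the most *Prox1*. 1b+/- replicate 1 followed with 62.8 CPM of *Tcf7l2*, where *Prox1* was 14.6 CPM. The thalamic genes did not share 1 order of libraries. Of the 10, 3 were highest in WT replicate 1, *Tcf7l2* among them. *Slc17a6*, *Rora* and *Cd44* were highest in 1b+/- replicate 1, and the rest in other libraries. For the 8 interneuron genes of the caudal ganglionic eminence the sum was lowest in 1b+/- replicate 1, at 430 CPM, and lay between 549 and 648 CPM elsewhere. Their part in the *Prox1* values was not tested. The genes most like *Prox1* across the 8 libraries (Pearson r of log2 CPM, among 11226 genes with a mean of at least 5 CPM) were the phosphatase *Dusp12* (r = 0.96) and *Nwd2* (r = 0.96). Here and below such genes were picked as the highest of 11226 values of r, so a high r follows from the choice. It was not tested.

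*Dsp*, on chromosome 13 (mm9 chr13:38243197-38290446, plus strand), encodes desmoplakin, which ties intermediate filaments to desmosomes and in the adult hippocampus outlines the granule cell layer. It had 36.5 and 14.2 CPM in WT (442 and 93 counts), 7.72, 9.68, 7.94 and 11.7 CPM in 1b+/- (117, 96, 164 and 35 counts) and 6.60 and 10.5 CPM in 1b-/- (54 and 42 counts). WT replicate 1 stood far above the rest, WT replicate 2 was the second highest, and the 6 mutant libraries overlapped with one another but with neither WT library. Such a lack of overlap with WT held for 12.3% of all tested genes in 1b+/- and 23.6% in 1b-/-. The means were 25.4 ± 15.7 CPM in WT (SD, n = 2), 9.25 ± 1.84 in 1b+/- (SD, n = 4) and 8.56 ± 2.76 in 1b-/- (SD, n = 2). The log2 difference was -1.52 (SE 0.32, 95% interval -2.22 to -0.81) for 1b+/- against WT and -1.63 (SE 0.41, -2.52 to -0.73) for 1b-/- against WT. The unadjusted p-values were 0.000559 and 0.00195, the smallest among the 6 genes. Over all genes the edgeR adjusted p-values were 0.294 and 1.0, so neither passed. 1b-/- differed from 1b+/- by -0.11 (-0.92 to 0.71).

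The size of the *Dsp* difference depended on WT replicate 1. Without it, 1b+/- against WT was -0.66 (SE 0.33) and 1b-/- against WT was -0.77, while without WT replicate 2 they were -2.02 and -2.13. All 18 alternatives for 1b+/- against WT had the same sign, and 4 passed the threshold. These were the edgeR likelihood ratio test (adjusted p = 0.00686), DESeq2 (0.0194), the fit with no filter (0.00221) and the fit without WT replicate 2 (0.0131), in a range up to 1.0. For 1b-/- against WT, 1 of 17 alternatives passed (no filter, adjusted p = 0.0271, in a range up to 1.0). Males alone gave -1.56 for 1b+/- against WT, a comparison free of the sex imbalance but still resting on the same WT pair.

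Epithelial RNA was highest in the libraries with the most *Dsp*, but the 2 measures did not keep the same order among the mutants. There, 1b+/- replicate 4 had the least epithelial RNA (16.4 CPM) and the most *Dsp* (11.7 CPM). The mutant with the most epithelial RNA, 1b+/- replicate 1 (49.9 CPM), had 7.72 CPM of *Dsp*. The 15 epithelial genes summed to 226 CPM in WT replicate 1 and 87.1 in WT replicate 2, the highest 2 libraries for *Dsp* as well, and 14 of 15 were highest in WT replicate 1. In 1b+/- against WT 9 of these 15 were lower past the threshold and 0 higher (edgeR, background 0.0834%), with a median log2 difference of -4.29. In 1b-/- against WT 0 of 15 passed (13 at an unadjusted p under 0.05), with a median of -4.14. Without WT replicate 1, and with sex as a covariate, no gene of the whole table passed in 1b+/- against WT (0 of all tested genes in either fit, 308 and 867 at an unadjusted p under 0.05). That list was written with these libraries already known and is not independent evidence of its direction. The 11 other desmosome genes, the partners of desmoplakin in epithelia, summed to 150 CPM in WT replicate 1, 85.8 in WT replicate 2 and 66.1 to 92.6 in the mutants, and 10 of 11 were highest in WT replicate 1, the exception being the plakoglobin gene *Jup*. None of the 11 passed the threshold in 1b+/- against WT (edgeR), and their median log2 difference was -1.58. The 2 genes most like *Dsp* were *Mal*, a membrane proteolipid of epithelia and myelin (r = 0.94, 95.1 CPM in WT replicate 1, 17.8 in WT replicate 2 and 3.44 to 6.13 in the mutants), and the myosin gene *Myh3* (r = 0.93). The part of epithelial tissue in the *Dsp* values was not tested. The 10 other dentate genes, by comparison, had median log2 differences of -0.03 (1b+/-) and 0.02 (1b-/-) from WT, with 0 of 10 past the threshold.

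**Figure D2:**
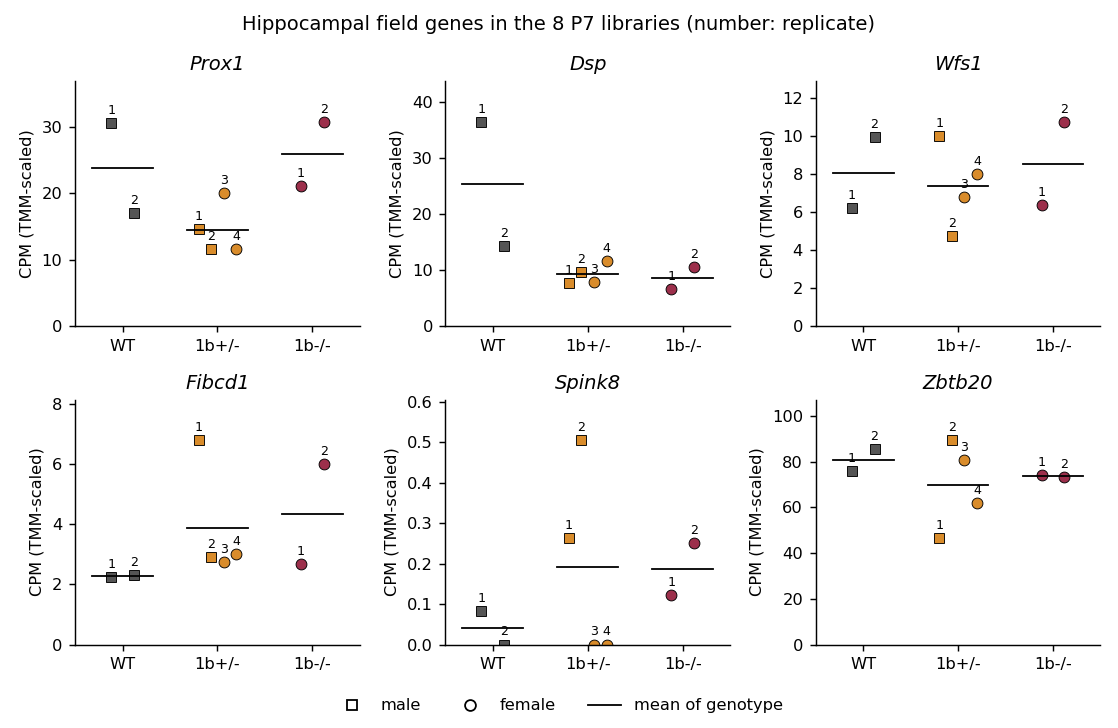
TMM-scaled CPM of the 6 field genes in each of the 8 libraries, by genotype, with a separate linear axis from 0 for each gene. Squares are males, circles females, digits replicate numbers and bars genotype means. *Dsp* shows WT replicate 1 at 36.5 CPM and the mutants at 6.60 to 11.7, and *Fibcd1* shows 1b+/- replicate 1 and 1b-/- replicate 2 above 6 CPM and the other libraries at 2.23 to 3.00.

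Among the CA1 genes, *Wfs1* gave differences between genotypes that were smaller than their standard errors. It encodes wolframin, a membrane protein of the endoplasmic reticulum, on chromosome 5 (mm9 chr5:37357343-37380221, minus strand). Its levels were 6.19 and 9.95 CPM in WT, 10.02, 4.74, 6.78 and 8.01 in 1b+/- and 6.36 and 10.8 in 1b-/-. The genotypes overlapped throughout, with 1 high and 1 low library in each of WT and 1b-/-. The means were 8.07 ± 2.66, 7.39 ± 2.21 and 8.56 ± 3.11 CPM (SD, n = 2, 4 and 2), and the log2 differences were -0.11 (95% interval -0.84 to 0.62) for 1b+/- and 0.07 (-0.80 to 0.94) for 1b-/- against WT, and 0.18 (-0.58 to 0.93) for 1b-/- against 1b+/-. The intervals against WT reach -0.84 for 1b+/- and 0.94 for 1b-/-, so changes of that size cannot be told from none at this depth and group size. Without WT replicate 1 and 1b+/- replicate 1 together, the 1b+/- difference was -0.65, still not past the threshold. The genes most like *Wfs1* were the kinesin *Kif1a*, an axonal motor of synaptic vesicle precursors (r = 0.998), and the cytoskeletal linker *Epb4.1l1* (r = 0.98), both far more abundant. *Kif1a* ran from 596 CPM in 1b+/- replicate 2, the lowest library for *Wfs1*, to 836 in 1b-/- replicate 2, the highest.

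*Fibcd1* encodes a membrane receptor that binds acetylated sugars, on chromosome 2 (mm9 chr2:31668810-31701525, minus strand). Its levels were 2.23 and 2.30 CPM in WT (27 and 15 counts), 6.79, 2.92, 2.76 and 3.00 in 1b+/- (103, 29, 57 and 9 counts) and 2.69 and 6.01 in 1b-/- (22 and 24 counts). Both WT libraries were lower than all 6 mutant libraries, but 4 of the 6 mutants exceeded the WT level by under 1 CPM, and 1 library in each mutant genotype was high. Of all tested genes, 12.3% did not overlap between 1b+/- and WT, and 23.6% between 1b-/- and WT. The means were 2.26 ± 0.0477 CPM in WT (SD, n = 2), 3.87 ± 1.95 in 1b+/- (SD, n = 4) and 4.35 ± 2.34 in 1b-/- (SD, n = 2). The log2 differences from WT were 0.81 (95% interval -0.23 to 1.86) and 0.87 (-0.36 to 2.09), with unadjusted p of 0.114 and 0.149, and neither passed. Without 1b+/- replicate 1 the former was 0.34, and without 1b-/- replicate 2 the latter was 0.25.

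The high *Fibcd1* library of 1b+/- was the one with midbrain and hindbrain RNA. 1b+/- replicate 1 had 60.3 CPM over those 14 genes, 8 of which were highest there. 1b-/- replicate 2, the other library high in *Fibcd1*, had 3.00 CPM, the second lowest sum. In 1b+/- replicate 1 the 13 other CA field genes also had their highest sum, 242 CPM against 209 to 230 CPM elsewhere, and 8 of 13 were highest there. The part of midbrain and hindbrain tissue in the *Fibcd1* value of 1b+/- replicate 1 was not tested. The genes most like *Fibcd1* were *Rnf121* (r = 0.96) and *Rnf215* (r = 0.96), which encode ring finger proteins. *Rnf121* was picked by r, so its high values in the 2 libraries high in *Fibcd1* follow from that choice (18.1 and 17.02 CPM, the other 6 having 8.67 to 13.02).

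**Figure D3:**
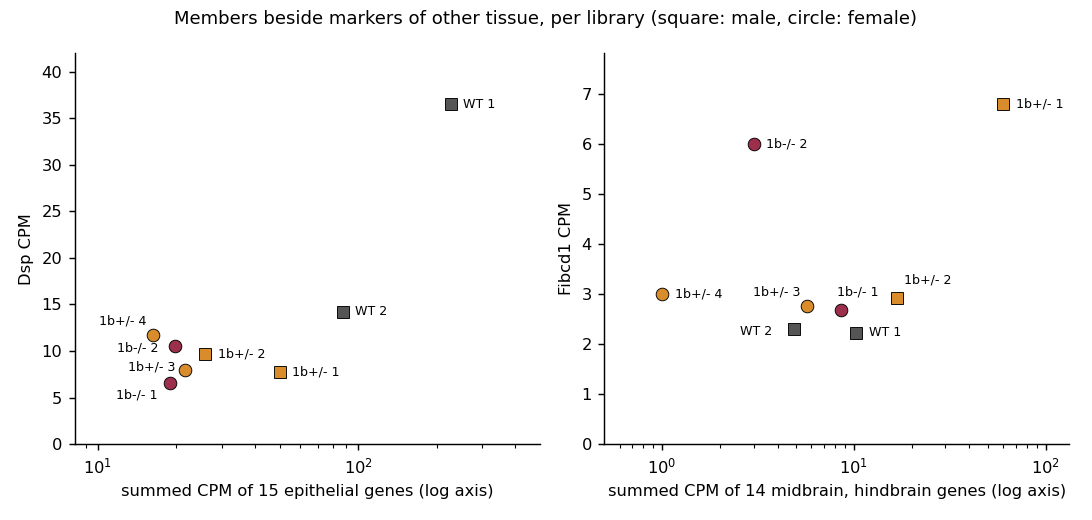
Left, *Dsp* CPM against the summed CPM of 15 epithelial genes. Right, *Fibcd1* CPM against the summed CPM of 14 midbrain, hindbrain and cerebellum genes. Each point is 1 of 8 libraries, named by genotype and replicate (square male, circle female), and the horizontal axes are log axes. WT replicate 1 is highest on both axes at left (226 and 36.5 CPM), and 1b+/- replicate 1 is highest on both axes at right (60.3 and 6.79 CPM) while 1b-/- replicate 2 is high in *Fibcd1* alone.

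*Spink8*, a Kazal-type inhibitor of serine proteases whose transcript outlines adult CA1, was all but undetected. The gene lies on chromosome 9 (mm9 chr9:109714794-109729147, plus strand). It had 1 and 0 counts in WT, 4, 5, 0 and 0 in 1b+/- and 1 and 1 in 1b-/-. Only 1b+/- replicates 1 and 2, the males of that genotype, exceeded 3 counts. Pooled over 8 libraries the 12 counts gave 0.151 CPM (exact Poisson 95% interval 0.0780 to 0.264, counting error only). The gene reached 1 CPM in 0 libraries and was not tested. Its values were within counting error: the coefficient of variation (CV) over libraries was 116% where sampling alone gives 97.3%. The genes most like it, *Deptor* (r = 0.98) and *Cramp1l* (r = 0.96), were ranked against these few counts. The 12 counts fell in 5 libraries, and 3 libraries had 0.

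*Zbtb20* has the longest locus of the 6 and lies on chromosome 16 (mm9 chr16:42875994-43642715, plus strand). It was 76.1 and 85.5 CPM in WT, 46.5, 89.3, 80.9 and 61.7 in 1b+/- and 74.2 and 73.3 in 1b-/-. 1b+/- held both the lowest and the highest library. The 1b-/- pair lay just under the WT pair, and these genotypes did not overlap in 23.6% of all tested genes. The means were 80.8 ± 6.59, 69.6 ± 19.3 and 73.8 ± 0.630 CPM (SD, n = 2, 4 and 2). The log2 differences were -0.21 (95% interval -0.69 to 0.27) for 1b+/- and -0.13 (-0.70 to 0.44) for 1b-/- against WT, and 0.08 (-0.41 to 0.57) for 1b-/- against 1b+/-. None passed. Without 1b+/- replicate 1 the first was -0.050 and the last -0.079.

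The lowest *Zbtb20* library, 1b+/- replicate 1, was also lowest for several lists, not all of them hippocampal. Neocortical genes (516 CPM) and interneuron genes of the caudal ganglionic eminence (430 CPM) had their lowest sums there. The other CA field genes went the other way, with their highest sum there (242 CPM). The 4 primordium genes summed to 149 CPM in 1b+/- replicate 1 and 170 to 221 elsewhere, and the 10 other dentate genes to 281 CPM there and 314 to 427 elsewhere. Astrocyte genes, of cells that also make *Zbtb20*, summed to 1170 CPM in 1b+/- replicate 1 and 910 to 1233 CPM across libraries. The part of any of these tissues or cells in the *Zbtb20* value of that library was not tested. The genes most like *Zbtb20* were the RNA-binding protein gene *Taf15* (r = 0.97, 39.8 to 76.9 CPM) and *Tubgcp3*, of the gamma-tubulin ring (r = 0.97).

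The 5 field genes that could be tested gave no call in any genotype comparison. In 1b+/- against WT 0 of 5 passed at an adjusted p of 0.05 (edgeR, background 0.0834% of 15588 genes), and 2 of 5, *Dsp* and *Prox1*, had an unadjusted p under 0.05 (background 4.34%). In 1b-/- against WT 0 of 5 passed (background 0.00642%), and 1, *Dsp*, had an unadjusted p under 0.05 (1.64%). In 1b-/- against 1b+/- 0 of 5 passed (background 0.00642%), and 1, *Prox1*, had an unadjusted p under 0.05 (1.23%). DESeq2 called 1, 0 and 0 of them, the 1 being *Dsp*. The first 2 comparisons share the WT libraries, so the repeated *Dsp* value is not independent. Libraries of the compared genotypes did not overlap for 2 of 5 genes in 1b+/- against WT (*Fibcd1* and *Dsp*, background 12.3%), for 3 of 5 in 1b-/- against WT (*Zbtb20*, *Fibcd1* and *Dsp*, background 23.6%) and for 1 of 5 in 1b-/- against 1b+/- (*Prox1*, background 7.4%).

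As a group the 5 had a median log2 difference of -0.21 in 1b+/- against WT (all genes 0.01), with 1 above and 4 below 0. The median was 0.07 in 1b-/- against WT (all genes -0.01), with 3 above and 2 below, and 0.08 in 1b-/- against 1b+/-, with 4 above and 1 below. Of the 27 other hippocampal genes, 0 passed in any of these comparisons, and 1, 2 and 0 had an unadjusted p under 0.05. Their log2 differences ran from -0.41 to 0.93, from -0.64 to 0.90 and from -0.75 to 0.53. The CA field genes alone had medians of 0.26, -0.04 and -0.08, and the 4 primordium genes -0.23, -0.31 and -0.08.

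**Figure D4:**
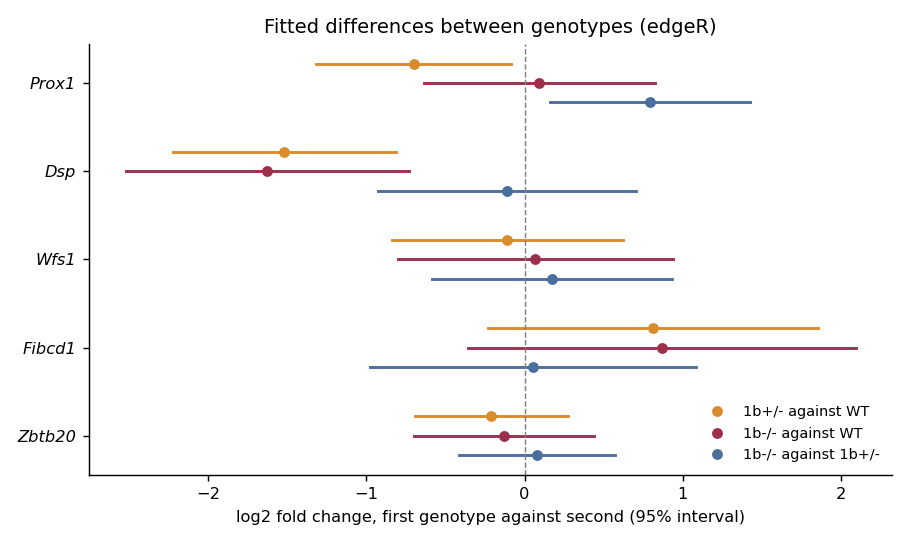
Fitted log2 fold changes of the 5 tested field genes in 3 genotype comparisons (points) with 95% intervals (lines), from edgeR's quasi-likelihood fit over 8 libraries. The *Dsp* intervals against WT (-2.22 to -0.81 and -2.52 to -0.73) and the *Prox1* intervals that involve 1b+/- leave out 0 before any adjustment, and the other lines cross 0.

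Sex could be compared within 1b+/- only, 2 females against 2 males. None of the 5 tested genes passed (edgeR, background 0.0321%), 0 had an unadjusted p under 0.05 (background 2.66%), DESeq2 called 0, and the median log2 difference was 0.09. *Fibcd1* had the lowest unadjusted p (0.137), with -0.80 (95% interval -1.89 to 0.30), and this rested on the male 1b+/- replicate 1: without it the value was -0.05. *Prox1* was at 0.34 (-0.42 to 1.10), *Dsp* at 0.11, *Zbtb20* at 0.09 and *Wfs1* at -0.05. With sex as a covariate, *Prox1* in 1b-/- against WT went from 0.09 to -0.24. The same fit moved *Fibcd1* upwards, from 0.87 to 1.66 for 1b-/- and from 0.81 to 1.12 for 1b+/-, both relative to WT, and the difference between the mutant genotypes went from 0.05 to 0.54. Its sex term came from 1b+/- alone, so the shift of *Fibcd1* rested on 1b+/- replicate 1 as well. The fit with sex as a covariate was not repeated without that library. 0 of 5 field genes passed in that fit. An unadjusted p under 0.05 was reached by 3 of them in 1b+/- and 2 in 1b-/- relative to WT, and by 0 between the mutants. Over all 15588 tested genes the counts in these 3 comparisons were 867, 412 and 111 (edgeR).

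Within the 4 1b+/- animals the spread of each tested gene was wider than counting error alone. There the CV of CPM was 27.5% for *Prox1* (9.13% from counting), 27.7% for *Zbtb20* (4.35%), 30.0% for *Wfs1* (13.8%), 50.4% for *Fibcd1* (17.7%) and 19.9% for *Dsp* (12.98%). The pairs of the other genotypes did not all do so: the WT pair of *Fibcd1* had a CV of 2.11% (22.9% from counting) and the 1b-/- pair of *Zbtb20* one of 0.854% (5.02%). *Dsp* had its widest spread in WT, 62.0% (6.35% from counting). The spread that edgeR estimated within genotypes, as a biological CV, was 18.9% for *Zbtb20*, near the median of all genes (18.5%), and 23.8% for *Prox1*, 26.3% for *Wfs1*, 27.4% for *Dsp* and 34.2% for *Fibcd1*. *Fibcd1* was more variable than 86.0% of tested genes.

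Genes of the same field did not go up and down together in a detectable way. Of 15 pairs, most of them across fields, 7 had a positive r of log2 CPM over the 8 libraries. After adjustment over the 15 pairs, 0 passed (exact two-sided permutation tests). With 8 libraries a moderate relation can go undetected. The CA1 pair *Wfs1* and *Fibcd1* had r = 0.59 (exact permutation p = 0.156, adjusted 0.828) and rho = 0.57 (exact permutation p = 0.151, adjusted 0.756), r = 0.54 without the 2 libraries farthest from the *Wfs1* median, and r = 0.74 within genotypes. The CA1 gene *Spink8*, with 12 counts in all, had r = 0.52 with *Fibcd1* and r = -0.23 with *Wfs1*. The dentate pair *Prox1* and *Dsp* had r = 0.41 (exact permutation p = 0.344, adjusted 0.860) and rho = 0.12 (exact permutation p = 0.793, adjusted 0.951), and r = -0.46 without WT replicate 1 and 1b-/- replicate 2, so its sign rested on those libraries. The pair with the lowest p was *Zbtb20* and *Fibcd1*, with r = -0.69 (exact permutation p = 0.0482, adjusted 0.722) and rho = -0.62 (exact permutation p = 0.115, adjusted 0.756). It rested in part on 1b+/- replicates 1 and 4, without which r was -0.41, and was -0.69 within genotypes.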

How the data were processed

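Each of the 8 libraries was a stranded poly(A) library from 1 P7 animal, read from a single end. The authors aligned reads to mm9 with STAR 2.7.2 and counted them per gene with featureCounts, and the deposited values are raw counts per gene symbol. The strand setting, the treatment of multi-mapping reads and the annotation behind the counts are not given in the sources used here. If strand was not used, reads of the antisense *Gm17566* (133 shared exon bases with *Prox1*), *Gm10129* (360 with *Dsp*) and *Gm9968* (104 with *Zbtb20*) cannot be told apart from these genes.

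Groups were taken from the labels, and replicates were numbered in the order of deposit. P-values of the comparisons set each difference against the spread between these animals within groups. Those of the correlations came from permuted pairings of libraries. A gene had to reach 1 CPM in some library to be tested (15588 did). Genotypes were compared in edgeR 4.0.16 (R 4.3.3) by quasi-likelihood, with TMM scaling, genotype alone and all 8 libraries in 1 fit, at a Benjamini-Hochberg adjusted p of 0.05. Scripts were tested on simulated data. RPKM used the union of exons in the GENCODE annotation of mm9, which gave lengths for 14431 of the tested genes. Likeness is Pearson r of log2 CPM with a prior count of 2, and the 2 genes with the highest r were named for each field gene. From each list, up to 3 (hippocampal) or 2 (other) genes with the highest mean RPKM were named, and 1 of them is not reported here. Members and lists were chosen with earlier results of these data known. The alternatives changed the filter (filterByExpr or none), the scaling (upper quartile or RLE), the test (likelihood ratio, or DESeq2 1.42.0), the covariates (sex added) or the libraries (only the compared genotypes, 1 sex, or each library omitted).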

Additional observations from a re-analysis of the deposited data

Results flagged for a closer look

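The *Fibcd1* level of 1b+/- replicate 1, at 6.79 CPM, was far from the other 3 libraries of that genotype, which lay between 2.76 and 3.00 CPM. Its gap to the nearest library took 0.940 of the range of the group of 4 libraries, above Dixon's 95% critical value. Among 19 measures examined in this way it was the 1 past that value, and chance alone would give about 0.95.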

How the results depend on the processing

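No paired analysis was possible because the labels give no replicate number that groups share. Counting error limits *Spink8* at any depth here, and 2 animals in WT and 1b-/- limit the rest. When 1 of 2 animals was left out, the remaining one was assumed to vary like the other groups. Omission of both WT replicate 1 and 1b+/- replicate 1, and omissions in the comparison of sexes, were chosen after seeing the data. The causes of the changes below were not tested. The levels in CPM and RPKM moved by less than 1 SD in 24 of 24 alternatives.

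Field genes past the threshold rose from 0 to 1 (*Dsp*) in 1b+/- against WT with no filter, the likelihood ratio test and DESeq2 (0 to 1 over omissions), and from 0 to 1 in 1b-/- against WT with no filter. Over all genes, 1b+/- against WT gave 13 calls, 57 with no filter, 64 by likelihood ratio, 24 by DESeq2, 0 to 30 over omissions (0 without WT replicate 1 and without 1b+/- replicate 3, 4 without 1b+/- replicate 4, 7 without 1b+/- replicate 1, 30 without WT replicate 2), and by edgeR 0 with sex as a covariate (867 unadjusted), 0 in males only (657) and 0 without both WT replicate 1 and 1b+/- replicate 1 (314). 1b-/- against WT gave 1 call, 33 with no filter, 23 by likelihood ratio, 13 by DESeq2, 15 with only these genotypes and 1 to 16 over omissions (16 without WT replicate 2). 1b-/- against 1b+/- gave 1, and 0 to 1 over omissions. Females against males gave 5, 85 with no filter, 20 by likelihood ratio, 14 by DESeq2 and 5 to 46 over omissions (46 without 1b+/- replicate 2).

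Sign changes fell on log2 differences that did not pass. Over omissions, 1b-/- against WT ran from -0.25 to 0.60 for *Prox1* and -0.32 to 0.44 for *Wfs1*, and 1b+/- against WT from -0.43 to 0.25 for *Wfs1* (-0.65 without both). 1b-/- against 1b+/- ran from -0.079 to 0.23 for *Zbtb20*, -0.21 to 0.54 for *Wfs1*, -0.56 to 0.59 for *Fibcd1* and -0.44 to 0.23 for *Dsp*. Females against males ran from -0.17 to 0.61 for *Prox1*, -0.31 to 0.64 for *Zbtb20*, -0.47 to 0.60 for *Wfs1* and -0.13 to 0.43 for *Dsp*. *Prox1* in 1b-/- against WT was -0.24 with sex as a covariate. Without both libraries, *Wfs1* in 1b-/- against WT was -0.26 and *Zbtb20* in 1b-/- against 1b+/- was -0.078.

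The correlation changed sign by Spearman rank for *Prox1* with *Zbtb20* (-0.14) and with *Fibcd1* (-0.29). Without the 2 libraries farthest from the median it did so for *Prox1* with *Fibcd1* (-0.25) and *Dsp* (-0.46), *Zbtb20* with *Spink8* (0.14) and *Dsp* (-0.066), and *Wfs1* with *Spink8* (0.13). Within genotypes it did so for *Prox1* with *Zbtb20* (-0.065), *Zbtb20* with *Spink8* (0.031) and *Dsp* (-0.061), and *Dsp* with *Fibcd1* (0.059) and *Spink8* (0.19).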

Other observations

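Choroid plexus genes, from tissue that lies against the hippocampal fimbria in the lateral ventricle, differed between libraries far more than the field genes did. The sum of 10 such genes ran from 30.6 CPM in 1b+/- replicate 2 to 1048 in WT replicate 2, led by the transthyretin gene *Ttr* (mean 428 RPKM) and *Kcne2* (7.77). 0 of 10 passed the threshold in 1b+/- against WT (edgeR), with a median log2 difference of -1.22.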
